A study of Arabidopsis thaliana with 12 samples.

Results

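The genotype difference that remains in the presence of 3-bromo-7-nitroindazole (3B7N) is described here: the cry1cry2 double mutant against wild type Col-0, both grown on 15 µM 3B7N. It rests on 6 of the 12 one-colour Agilent arrays of the series, 3 for cry1cry2 on 3B7N and 3 for wild type on 3B7N, taken by genotype and chemical from the sample labels. The other 6 arrays hold both genotypes on the solvent dimethyl sulfoxide (DMSO), 3 each, and serve here to show where the difference on 3B7N departs from that on DMSO. Seeds were kept on their medium, with 3B7N or with DMSO, for 3 days in the dark at 4 °C and then for 4 days in continuous blue light at a fluence rate of 5 µmol m-2 s-1, and whole 4-day-old seedlings were taken for RNA. The mutant is named cry1cry2 in the labels without alleles, and whether the arrays of a group came from separate cultures is not given in the sources used here, so p-values measure the spread between these samples, which may be technical. The study's title concerns chemicals that lengthen the hypocotyl in blue light, and 3B7N is known from mammals as an inhibitor of nitric oxide synthase.

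Cryptochromes are the blue-light receptors that hold hypocotyls short in blue light and, in Arabidopsis, CRY1 and CRY2 carry most of this task. Lit cryptochromes restrain the COP1 ubiquitin ligase, so that factors such as HY5 and HYH accumulate, and they dampen growth-promoting PIF factors. The small proteins BIC1 and BIC2, whose genes light induces, bind cryptochromes and switch them off. A seedling without cryptochromes has lost this input, and the comparison asks which transcripts still differ between the lines while the chemical is present.

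The values are log2 processed signals set relative to the 75th percentile of the same array, called relative log2 signals below. Each is a level of 1 probe and is not compared between genes. A gene was called when its log2 difference between cry1cry2 and wild type was at least 1 in size and its adjusted p (limma, Benjamini-Hochberg over all 20256 genes tested) was under 0.05. Before scaling, the 75th percentile of the signal was 3198, 4045 and 3186 on the 3 cry1cry2 arrays, against 1920, 882.6 and 2022 on the wild-type arrays. The share of probes well above background was 75.7% to 76.8% in cry1cry2, against 64.5% to 74.5% in wild type. Arrays correlated at r = 0.987 to 0.991 within cry1cry2, at 0.979 to 0.986 within wild type and at 0.962 to 0.975 between the genotypes (across genes, which are not independent replicates).

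The 12 arrays lay on 3 slides, and no slide held both genotypes on 3B7N. The cry1cry2 arrays were all on slide 3, and the wild-type arrays were on slide 1 (1 array) and slide 2 (2 arrays). Values within a slide therefore do not exist, and a slide term can be fitted only through groups that span slides: wild type on 3B7N links slides 1 and 2, and cry1cry2 on DMSO links slides 2 and 3. With it, 36 genes were called, 35 of them among the 1436 called without it, with a median standard error of 0.323 against 0.184 without it. Of the 1436 genes, 1432 kept their sign with the slide term and 843 kept a difference of at least 1. In that fit wild-type array 1 drops out of the difference on 3B7N. The step from slide 2 to slide 3 rests on cry1cry2 DMSO array 3 against DMSO arrays 1 and 2. A call kept with the slide term thus leans on that 1 array for its slide correction. For genes outside the 35, slide and genotype cannot be told apart by a test in these data, and those of the 35 described below are named as such.

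The cryptochrome transcripts matched the labels. CRY1 (AT4G08920) gave -7.77, -8.01 and -7.73 in cry1cry2, against 3.58, 3.85 and 3.69 in wild type (relative log2 signal). Its second probe was not well above background on any mutant array and was at least 2750-fold lower in cry1cry2. CRY2 (AT1G04400) gave -8.94, -8.64 and -8.85 in cry1cry2, against 2.48, 2.36 and 2.48 in wild type. Its 2 probes were not well above background on any mutant array and were at least 1400-fold and 1840-fold lower (adjusted p = 2.81e-13 for the first). CRY3 (AT5G24850), a related photolyase-like protein, differed by -0.50 ± 0.14 (log2, SE) and was not called.

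Genes beside the CRY loci were low as well. Of the 10 annotated genes on each side of CRY2, 13 were on the array and 10 were tested. 3 of these were called lower and 0 higher. AT1G04420, the second gene from CRY2, was not well above background on any mutant array and was at least 821-fold lower, at -10.19, -10.48 and -10.23 in cry1cry2, against 1.44, 1.59 and 1.96 in wild type. The gene next to CRY2, c-NAD-MDH1, which encodes a cytosolic malate dehydrogenase, was lower by 7.08 ± 0.19 in log2 units on its brightest probe, which was well above background on all 3 mutant arrays. The 4 probes of c-NAD-MDH1 gave -15.9 to -7.08, so its brightest probe had the smallest difference. AT1G04350, 6 genes away on the other side, was lower by 1.38 ± 0.23. On the side of CRY1, 6 neighbours were tested and 1 was called lower, ARGAH1, an arginase gene, which was at least 98.1-fold lower. On DMSO the mutant was at least 1560-fold lower for AT1G04420 and at least 102-fold lower for ARGAH1, so both differences were present on either medium. CRY1, CRY2, AT1G04420, c-NAD-MDH1 and ARGAH1 kept their calls with the slide term. These neighbours are set apart from the genes described next.

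**Figure D1:**
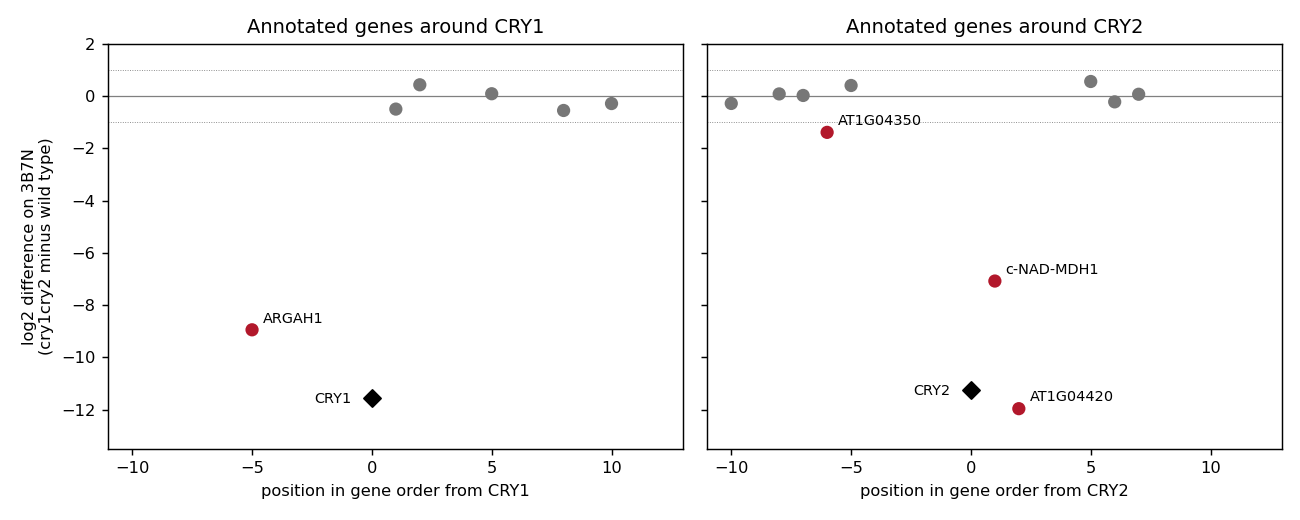
Log2 difference between cry1cry2 and wild type on 3B7N (vertical axis) for the tested genes among the 10 annotated genes on each side of CRY1 (left) and CRY2 (right), by position in gene order (horizontal axis). Red points are called genes, grey points are not called, black diamonds are the CRY genes, and dotted lines mark differences of 1 and -1. ARGAH1 near CRY1 and AT1G04350, c-NAD-MDH1 and AT1G04420 near CRY2 are called lower.

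On 3B7N, 1436 genes were called, 7.09% of the 20256 tested: 825 were higher in cry1cry2 (4.07%) and 611 lower (3.02%). The same fit on DMSO called 3761 genes, 18.6%, with 1529 higher (7.55%) and 2232 lower (11%). The difference between the 2 genotype differences was itself called for 3736 genes, 18.4%, with 2554 above 0 (12.6%) and 1182 below 0 (5.84%). Most differences on 3B7N were modest, since 1254 of the 1436 genes lay between 2-fold and 4-fold and 182 above 4-fold. The values of the 2 genotypes did not overlap for 1420 of the 1436. Over all genes tested, 8509 did not overlap (42%), cry1cry2 lying above wild type on all arrays in 23.1% of genes and below it in 18.9%, and 8158 had an unadjusted p under 0.05. Among the called genes 57.5% were higher in cry1cry2, against 38% when arrays were scaled to their median, with 1478 genes called and a median over all genes of -0.0739 in log2 units in place of 0.0593. In 78 genes called higher, no probe was well above background on any wild-type array, and the same held on the mutant arrays for 7 genes called lower.

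Calls among the brightest genes depended on how arrays were scaled. Genes were split by mean signal into 5 classes of equal size, and the dimmest class had a median log2 difference of 0.248, with 447 called higher and 177 lower. The brightest class had a median of -0.204, with 14 called higher and 175 lower. After quantile normalization these medians were 0.272 and 0.0425, and the brightest class held 39 genes called higher and 50 lower. The lists of photosystem and housekeeping genes, which are bright, are described below with both scalings.

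**Figure D2:**
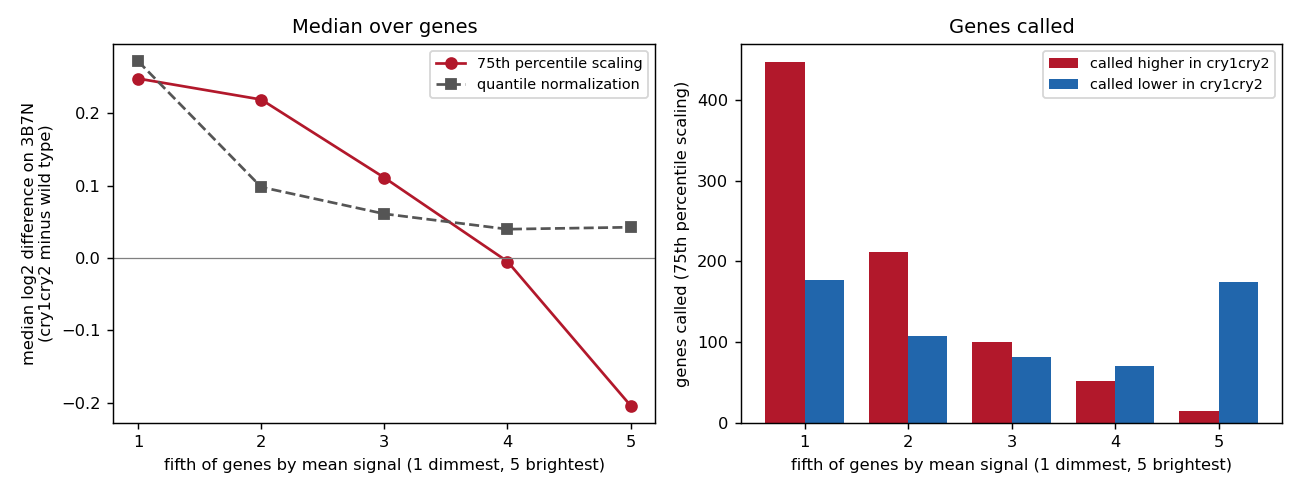
Left, median log2 difference between cry1cry2 and wild type on 3B7N in 5 equal classes of genes by mean signal (1 dimmest, 5 brightest), with 75th percentile scaling (red circles) and with quantile normalization (grey squares). Right, number of genes called higher (red) and lower (blue) in cry1cry2 in each class. The median runs from 0.248 to -0.204 with 75th percentile scaling, and the brightest class holds 14 genes called higher and 175 called lower.

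The lowest genes with a symbol, apart from CRY1, CRY2 and their neighbours, were led by a kinase gene. CIPK20 (AT5G45820), a protein kinase gene of the family that works with calcium sensors, gave -8.38, -7.29 and -7.64 in cry1cry2, against -2.59, -3.16 and -2.22 in wild type. It was well above background on 1 mutant array. Its difference was -5.11 ± 0.29 (log2, SE, adjusted p = 1.88e-06), and on DMSO it was -5.46. CIPK20 kept its call with the slide term. NDA1 (AT1G07180), an alternative NAD(P)H dehydrogenase of the inner face of the mitochondrial membrane, gave -3.55, -3.79 and -3.23 in cry1cry2, against 0.54, 0.58 and 0.25 in wild type, a difference of -3.98 ± 0.25 (adjusted p = 6.75e-06). The groups of both genes were far apart on every array.

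NDB3 (AT4G21490), an alternative NADH dehydrogenase of the outer face of that membrane, lay the other way. It gave -2.32, -1.66 and -1.95 in cry1cry2, against -4.73, -5.36 and -4.68 in wild type, where 2 arrays were well above background. It was higher by 2.95 ± 0.20 (adjusted p = 1.25e-05) on 3B7N and by 2.68 on DMSO. NDA1, whose genotype difference on DMSO was -6.63, and NDB3, whose difference was not called to change, thus lay in opposite directions in cry1cry2, and both kept their calls with the slide term.

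FBA5, PGL5 and QQS were also among the lowest. FBA5 (AT4G26530), a fructose-bisphosphate aldolase, gave -0.62, -1.06 and -0.13 in cry1cry2, against 2.85, 3.57 and 2.83 in wild type, and was lower by 3.69 ± 0.33 (adjusted p = 7.39e-05). PGL5 (AT5G24420), of the 6-phosphogluconolactonase family of the oxidative pentose phosphate pathway, was lower by 3.22 ± 0.26 (adjusted p = 3.41e-05). QQS (AT3G30720), a gene known only from Arabidopsis whose level affects leaf starch, was lower by 3.12 ± 0.28 (adjusted p = 6.69e-05). QQS gave -5.64, -5.90 and -5.01 in cry1cry2, against -2.11, -2.54 and -2.55 in wild type, with no overlap. These differences of FBA5 and PGL5 were smaller than on DMSO, where FBA5 stood at -6.38 and PGL5 at -6.55, while QQS stood at -2.70 and its difference was not called to change. PGL5 kept its call with the slide term.

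Xyloglucan endotransglucosylase/hydrolases, enzymes that cut and rejoin wall polymers, gave both low and high values. XTH6 (AT5G65730) gave -2.82, -1.90 and -2.13 in cry1cry2, against 0.85, 1.51 and 1.39 in wild type, a difference of -3.54 ± 0.24 (adjusted p = 1.25e-05). XTH25 (AT5G57550) was lower by 3.33 ± 0.27 (adjusted p = 3.58e-05), and XTH33 (AT1G10550) was higher by 1.67 ± 0.33 (adjusted p = 0.00587). The groups did not overlap for any of the 3, and XTH6 kept its call with the slide term.

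A further 3 of the lowest genes are known from seeds and germination. TIP3;1 (AT1G73190), a vacuolar water channel of seeds, gave -4.15, -3.57 and -4.57 in cry1cry2, against 0.20, -1.29 and -1.51 in wild type (difference -3.23 ± 0.63, adjusted p = 0.00546). EPR1 (AT2G27380), an extensin-like wall protein gene of germinating seeds, was lower by 3.08 ± 0.33 (adjusted p = 0.000241). AtMT4b (AT2G23240), a metallothionein gene of seeds, was lower by 2.90 ± 0.69 (adjusted p = 0.0129). Wild-type array 1 was the highest for all 3 genes, and without it TIP3;1 still differed by -2.70. None of the 3 was called on DMSO, where TIP3;1 differed by 0.26, EPR1 by -0.68 and AtMT4b by -0.06, and for all 3 the change of the difference between media was called.

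The highest genes with a symbol were led by GH9B15 (AT4G23560), of glycosyl hydrolase family 9, whose members act on wall glucans. It gave 0.01, 0.77 and 0.73 in cry1cry2, against -8.98, -3.33 and -3.63 in wild type. Its difference of 5.82 ± 1.1 (adjusted p = 0.00499) rested in part on wild-type array 1, without which it was 3.98, and with the slide term it was 3.65 and still called. GH9B15 was well above background on 2 of the 3 wild-type arrays, not on array 1, and its 3 probes gave 3.56 to 5.82. SAG29 (AT5G13170), a sugar transporter gene of the SWEET family linked to senescence, gave -2.96, -2.57 and -2.94 in cry1cry2, against -6.16, -6.01 and -5.00 in wild type. It was well above background on 2 of the 3 wild-type arrays and was higher by 2.90 ± 0.29 (adjusted p = 0.000139), against 3.03 on DMSO. AT4G36880, a cysteine proteinase gene, was higher by 2.76 ± 0.42 (adjusted p = 0.00173).

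Other genes of this group were also dim in wild type. The receptor-like protein gene RLP33 (3.46 ± 0.46), the cytochrome P450 gene CYP96A5 (3.23 ± 0.44), SRO3 of the RCD1-like family (2.93 ± 0.36) and the carboxypeptidase-like gene scpl44 (2.77 ± 0.28) were well above background on 1 or 2 of the 3 wild-type arrays. ARCK1 (AT4G11890), a receptor-like kinase gene, was not well above background on any wild-type array and was at least 4.63-fold higher in cry1cry2 (adjusted p = 0.000288). Each of these genes was also called higher on DMSO, and for none was the difference called to change with the medium. SRO3 and scpl44 lost their calls on 3B7N with normexp background correction.

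AT5G46940, AT5G46950 and AT5G46960 are 3 adjacent genes without a symbol, named after their values were seen. AT5G46960 gave -1.41, -1.09 and -1.0 in cry1cry2, against -7.77, -7.63 and -6.38 in wild type, a difference of 6.09 ± 0.34 (adjusted p = 1.88e-06). AT5G46950 was at least 19.5-fold higher and AT5G46940 at least 9.21-fold higher, since neither was well above background on any wild-type array. On DMSO the 3 were higher by 2.76, 2.78 and 3.88 in the order AT5G46960, AT5G46950 and AT5G46940. AT5G46950 and AT5G46960 kept their calls with the slide term.

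**Figure D3:**
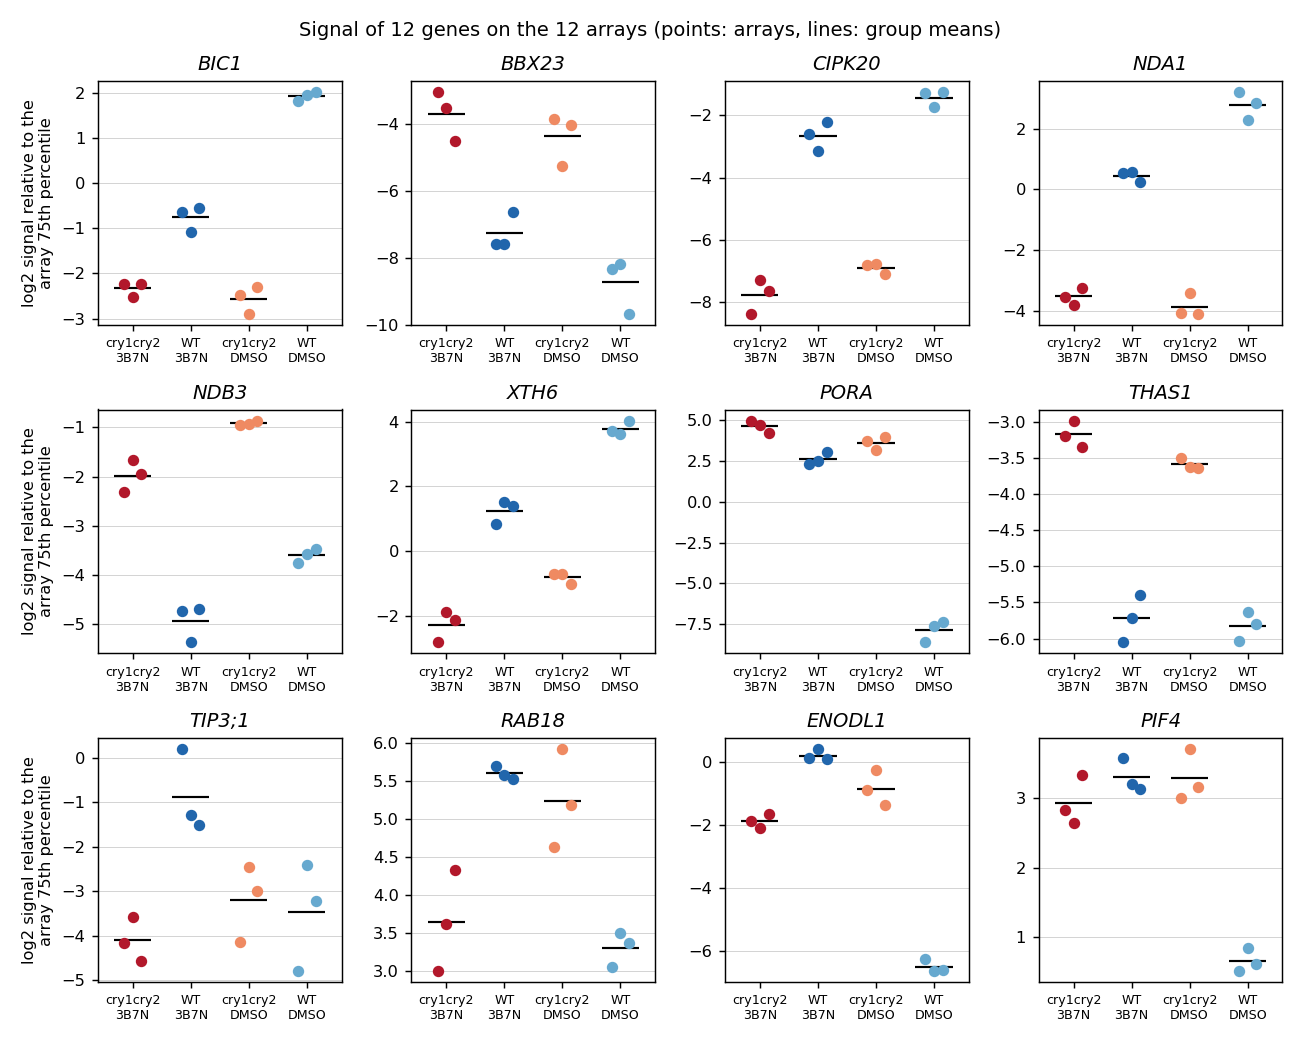
Relative log2 signal (vertical axes) of 12 genes on the 3 arrays of each group, with cry1cry2 on 3B7N, wild type on 3B7N, cry1cry2 on DMSO and wild type on DMSO from left to right. Points are arrays and lines are group means. CIPK20, NDB3 and THAS1 keep a similar distance between the genotypes on both media, BIC1 and PORA are closer together on 3B7N, and RAB18 and ENODL1 lie in opposite order on the 2 media.

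The remaining results go by the 28 gene lists, of which 530 of 556 entries were tested. For each list the number called is to be read against the 4.07% called higher and 3.02% called lower among all genes, and its median against that of all genes, 0.0593.

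Some calls depended on single arrays. Of the named genes called, 46 lost the call when 1 of the 6 arrays was left out, 16 of them without 1 array alone. Without wild-type array 2 alone these were BBX32, BR6OX1, DIN6, DIN10, FHY1, GLU1, IBH1, LHCA2 and RCA. CHIL was lost without wild-type array 3, CYP79B3 without wild-type array 1, EXPA7 and RVE1 without cry1cry2 array 1, LNK2 without cry1cry2 array 2, and CYP710A1 and FSD1 without cry1cry2 array 3. ABCG40 and OLEO2 lost theirs without any 1 of the 6, and FHL, GA2OX7 and MYB39 without any 1 of 5. Leaving out 1 array gave 1 to 3 detoxification genes higher in place of 4, 1 to 3 of the brassinosteroid and gibberellin list in place of 4, and 2 to 4 clock genes lower in place of 4.

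Of 14 photoreceptor genes tested, 4 were called lower and 0 higher, the median difference being -0.479. Beside CRY1 and CRY2 these were PHOT2 (AT5G58140), a phototropin, and ZTL (AT5G57360), a blue-light receptor of the clock. PHOT2 gave 0.72, 0.46 and 0.67 in cry1cry2, against 1.88, 1.97 and 1.56 in wild type, and was lower by 1.19 ± 0.18 (adjusted p = 0.00166), although 1 of its 3 probes gave 0.37. ZTL was lower by 1.04 ± 0.15 (adjusted p = 0.00131), and with quantile normalization it stood at -0.97, short of the size required.

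Of the cryptochrome inhibitors, BIC1 remained lower in the mutant on 3B7N, and the difference of both genes was smaller than on DMSO. BIC1 (AT3G52740) gave -2.23, -2.51 and -2.24 in cry1cry2, against -0.63, -1.09 and -0.56 in wild type. It was lower by 1.57 ± 0.18 (adjusted p = 0.000449), against 4.49 lower on DMSO, and the change between media was 2.92 (adjusted p = 3.66e-05). BIC2 (AT3G44450) gave -6.61, -6.62 and -6.48 in cry1cry2, against -5.66, -5.82 and -5.81 in wild type. Its difference of -0.81 ± 0.21 (adjusted p = 0.0188) was short of the size required for a call, while that on DMSO was -4.87, a change of 4.07 (adjusted p = 1.01e-05). The mutant values of BIC1 on the 2 media overlapped, and those of wild type did not.

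Of 27 further regulators of photomorphogenesis, 8 were called lower and 1 higher, with a median of -0.351. The 8 fell to 4 without cry1cry2 array 1 and to 5 without cry1cry2 array 2 or wild-type array 3. The best known regulators were not among them. HY5 (AT5G11260) gave 0.71, 0.49 and 0.84 in cry1cry2, against 1.15, -0.09 and 0.34 in wild type. Its groups overlapped (0.21 ± 0.33, adjusted p = 0.657), and so did those of COP1 (0.07 ± 0.18, adjusted p = 0.81). HYH (AT3G17609), the close relative of HY5, differed by -0.28 ± 0.19 (adjusted p = 0.302) on 3B7N and by -2.49 on DMSO, and the change was called (2.22, adjusted p = 0.000216). These tests do not show that HY5, COP1 and HYH were alike in both genotypes. The 95% interval of the difference was -0.50 to 0.93 for HY5, -0.33 to 0.46 for COP1 and -0.69 to 0.14 for HYH.

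B-box proteins, zinc-finger factors that act with or against HY5, supplied most of the calls. BBX30 (-1.79 ± 0.49), BBX25 (-1.73 ± 0.22), BBX31 (-1.63 ± 0.45), BBX32 (-1.52 ± 0.37) and BBX24 (-1.0 ± 0.24) were lower in cry1cry2. BBX25 (AT2G31380) gave -0.53, -0.61 and -0.77 in cry1cry2, against 0.90, 1.07 and 1.30 in wild type (adjusted p = 0.000668). BBX23 (AT4G10240) was the exception, at -3.06, -3.54 and -4.53 in cry1cry2, against -7.60, -7.58 and -6.63 in wild type. It was higher by 3.55 ± 0.51 (adjusted p = 0.00127), but was well above background on only 1 of the 3 wild-type arrays. BBX24 lost its call with quantile normalization (-0.63), BBX30 without any 1 of 3 arrays and BBX31 without any 1 of 4. The UV-B receptor repressors RUP2 (-1.41 ± 0.19) and RUP1 (-1.07 ± 0.22) and the plastid sigma factor gene SIG5 (-1.29 ± 0.20), which blue light induces, were lower too.

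PIF3, PIF4 and PIF5 were not called on 3B7N. PIF4 (AT2G43010), a growth-promoting bHLH factor, gave 2.83, 2.65 and 3.34 in cry1cry2, against 3.58, 3.2 and 3.14 in wild type. The groups overlapped (-0.36 ± 0.23, adjusted p = 0.246), whereas on DMSO the mutant was higher by 2.63, a change of -3.0 (adjusted p = 9.49e-05). PIF5 differed by -0.17 ± 0.19 and PIF3 by 0.59 ± 0.13, and neither was called. Of 26 genes of the PIF and shade response, 2 were called higher and 1 lower, with a median of 0.152, against 15 higher and 1 lower with a median of 1.5 on DMSO. The 2 higher ones were FHY1 (1.1 ± 0.21) and its homologue FHL (1.15 ± 0.35), which carry phytochrome A into the nucleus. The call of FHL held in 8 of 16 alternatives other than the slide term. The lower one was ST2A (AT5G07010), a sulfotransferase gene acting on jasmonates, at -0.99, 0.19 and -0.61 in cry1cry2, against 0.77, 0.29 and 0.63 in wild type (-1.03 ± 0.28, adjusted p = 0.0204), and 3.56 higher in cry1cry2 on DMSO.

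Of 31 auxin genes, 2 were called higher and 0 lower on 3B7N, against 15 and 0 on DMSO. The 2 were IAA20 (1.03 ± 0.28, against 5.33 on DMSO), an Aux/IAA repressor gene, and SAUR9 (1.17 ± 0.33), whose second probe gave 0.42. Their calls held in 11 and 9 of the 16 alternatives other than the slide term, with which SAUR9 stood at 0.047. Leaving out 1 array gave 0 to 2 auxin genes higher. Of 25 cell wall growth genes, XTH33 and the expansin gene EXPA10 (1.05 ± 0.35) were called higher, EXPA10 in 6 of the 16 alternatives. The expansin gene EXPA8 was called lower (-1.02 ± 0.21), and on DMSO it was 1.34 higher in cry1cry2. IAA20 gave 1.62, 1.17 and 1.48 in cry1cry2, against 0.80, -0.08 and 0.46 in wild type, with no overlap.

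Among 33 genes of brassinosteroids and gibberellins, 4 were higher and 2 lower, with a median of -0.0335. The brassinosteroid oxidases BR6OX1 (1.17 ± 0.25) and BR6OX2 (1.18 ± 0.35) were higher, as was IBH1 (1.08 ± 0.21), an inhibitor of brassinosteroid-driven growth, whose second probe gave 0.46. The call of BR6OX2 held in 10 of the 16 alternatives. GA2OX7, a gibberellin-inactivating enzyme gene, was also called higher (adjusted p = 0.0309), and its call held in 8 of the 16 alternatives. It was not well above background on any wild-type array, and neither a fold nor a lower bound is given for it. The 2 lower genes make these hormones. GA20OX2 (AT5G51810), a gibberellin 20-oxidase, gave -3.79, -3.02 and -3.12 in cry1cry2, against -1.61, -2.02 and -1.59 in wild type (-1.57 ± 0.23, adjusted p = 0.00162). CPD, a brassinosteroid synthesis enzyme gene, was lower by 1.06 ± 0.20 and stood at -0.58 with quantile normalization. On DMSO these 2 differed by 0.07 and -0.04, and the change was called for both.

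Of 19 ethylene genes, 3 were higher and 0 lower. ERF1, a transcription factor gene of the ethylene response, was higher by 1.98 ± 0.55, and the synthesis genes ACS5 and ACO1 by 1.38 ± 0.45 and 1.17 ± 0.21. The call of ERF1 held in 13 of 16 alternatives other than the slide term and that of ACS5 in 6. With the slide term the difference of ACS5 was -0.016. ACO1 was not called on DMSO (0.05), and its change between media was 1.12 (adjusted p = 0.0154).

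CHS (AT5G13930), chalcone synthase, gave -0.59, -0.68 and -1.51 in cry1cry2, against -0.38, -0.99 and -0.29 in wild type, and the groups overlapped (-0.37 ± 0.30, adjusted p = 0.372). On DMSO it was lower by 3.67 in cry1cry2, a change of 3.3 (adjusted p = 0.000292). Of 14 early pathway genes, 1 was called higher and 1 lower (median -0.0399), against 0 and 9 on DMSO (median -1.89). CHIL, which raises the output of chalcone synthesis, was lower by 1.19 ± 0.16 (adjusted p = 0.00102). MYB111 (AT5G49330), a flavonol regulator, was higher, at -3.92, -3.65 and -4.13 in cry1cry2, against -5.50, -6.61 and -5.40 in wild type (1.94 ± 0.30, adjusted p = 0.00183).

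Anthocyanin regulators lay in both directions. Of 12 genes of the late branch, 1 was higher and 2 lower, the median being 0.286. MYB75 (AT1G56650), which activates anthocyanin genes, gave -3.19, -3.47 and -3.49 in cry1cry2, against -6.15, -6.71 and -5.04 in wild type, higher by 2.59 ± 0.52 (adjusted p = 0.00624). MYBL2 (AT1G71030), which represses them, gave -0.38, 0.06 and -0.04 in cry1cry2, against 1.05, 1.23 and 1.68 in wild type, lower by 1.44 ± 0.19 (adjusted p = 0.000799). TTG1, a scaffold protein of the activating complex, was lower by 1.02 ± 0.17 and stood at -0.91 with quantile normalization. MYBL2 was not called on DMSO (-0.43), and the change was -1.01 (adjusted p = 0.0153).

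**Figure D4:**
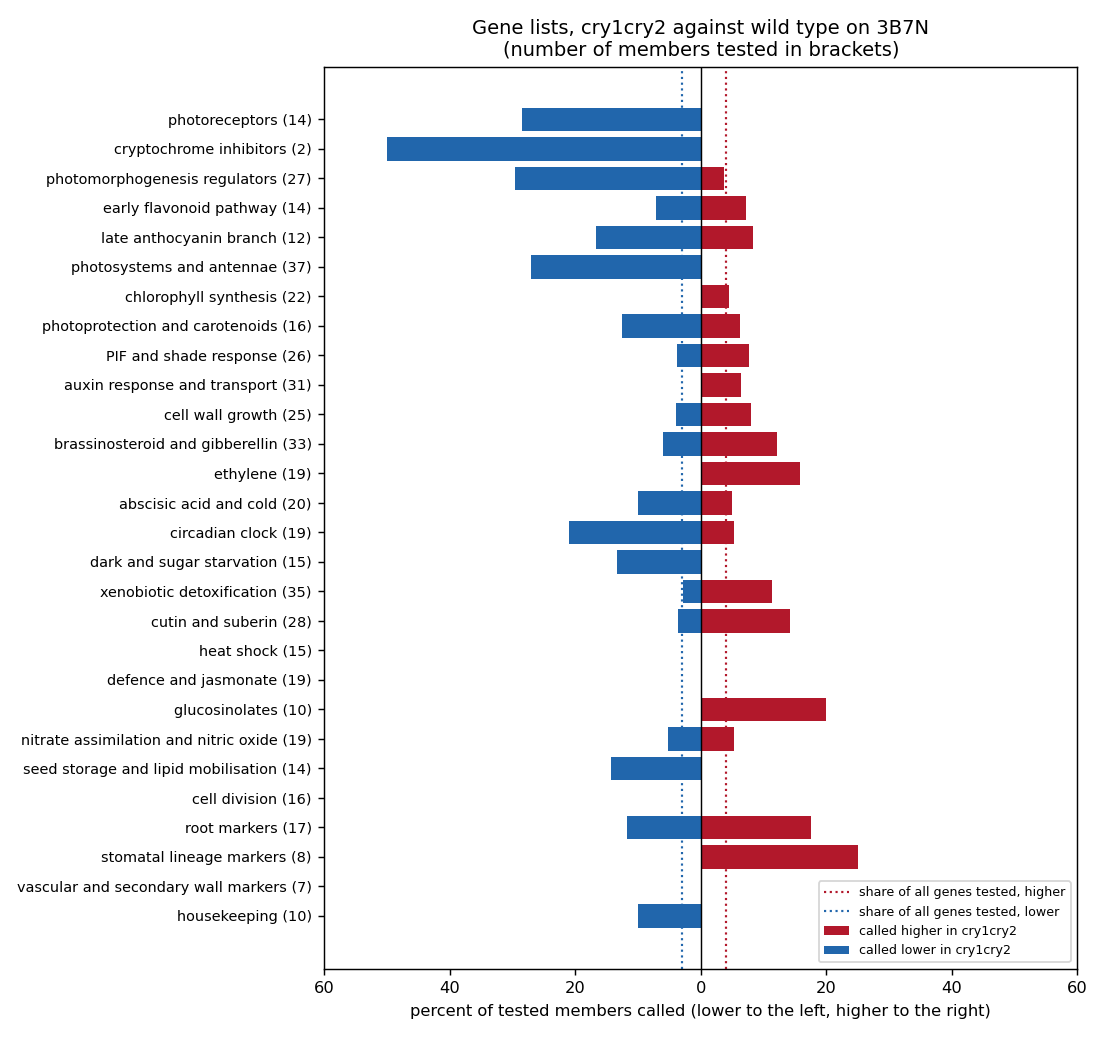
Percent of the tested members of each of the 28 gene lists called lower (blue, to the left) and higher (red, to the right) in cry1cry2 on 3B7N, with the number tested in brackets. Dotted lines mark the shares among all 20256 genes, 3.02% lower and 4.07% higher. Regulators of photomorphogenesis (8 of 27 lower) and photosystem genes (10 of 37 lower) have long bars to the left, and the heat shock, defence, cell division and vascular lists have none.

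Calls of photosystem and antenna genes depended on the scaling and on single arrays. Of 37 tested, 10 were called lower and 0 higher, with a median of -0.867. Without wild-type array 2 this count was 1, without cry1cry2 array 2 or 3 it was 3 and 5, and without wild-type array 1 or 3 it was 15. The 10 include LHCA2 (-1.1 ± 0.22), an antenna protein of photosystem I, and RCA (-1.18 ± 0.28), the Rubisco activase. After quantile normalization 1 was called lower, LHCB2.1 of the photosystem II antenna, and the median was -0.00641. LHCB2.1 (AT2G05100) gave -0.57, -0.82 and -1.22 in cry1cry2, against 0.34, 0.25 and 0.59 in wild type (-1.26 ± 0.21, adjusted p = 0.00286), and it may share signal with its near-identical family members. The 10 housekeeping genes showed the same dependence: 1 was called lower, UBQ10 (-1.17 ± 0.35), and their median was -0.552 with 75th percentile scaling and 0.037 with quantile normalization. The actin gene ACT8 differed by -0.78 ± 0.21. Whether brightness accounts for the photosystem values was not tested.

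Of 22 chlorophyll synthesis genes, 1 was called, PORA (AT5G54190), the protochlorophyllide reductase of dark-grown seedlings. It gave 4.96, 4.66 and 4.19 in cry1cry2, against 2.30, 2.49 and 3.04 in wild type, higher by 1.99 ± 0.34 (adjusted p = 0.00293), and its 3 probes gave 1.99 to 2.14. On DMSO the mutant gave 3.73, 3.14 and 3.96, against -8.59, -7.62 and -7.38 in wild type, where this probe was not well above background. The mutant was thus high on both media, and wild type was high on 3B7N alone.

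Among 16 photoprotection and carotenoid genes, 1 was higher and 2 lower, against 0 and 11 on DMSO. ELIP1 (AT3G22840), an early light-induced protein that binds pigments under light stress, gave 2.97, 2.74 and 2.68 in cry1cry2, against 1.42, 1.51 and 1.52 in wild type. It was higher by 1.32 ± 0.32 (adjusted p = 0.0143) and differed by -0.18 on DMSO. OHP2 (-1.1 ± 0.20), a one-helix protein of photosystem assembly, and FSD1 (-1.06 ± 0.19), an iron superoxide dismutase, were lower, and both fell short of the size required after quantile normalization (-0.90 and -0.76).

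Stress and reserve genes split. Of 20 abscisic acid and cold genes, 1 was higher and 2 lower on 3B7N, against 13 and 2 on DMSO. RAB18 (AT5G66400), a dehydrin, gave 3.01, 3.62 and 4.33 in cry1cry2, against 5.70, 5.58 and 5.53 in wild type, lower by 1.95 ± 0.34 (adjusted p = 0.00345). On DMSO it was higher in the mutant by 1.93, a change of -3.88 (adjusted p = 0.000239). RD29A (AT5G52310), another abscisic acid marker, lay the other way, higher by 1.27 ± 0.21 (adjusted p = 0.00275) on 3B7N and by 2.81 on DMSO. COR47 was lower by 1.05 ± 0.32, stood at -0.40 with quantile normalization and was called in 7 of the 16 alternatives.

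Of 14 genes of seed storage and reserve use, 2 were called lower and 0 higher, with a median of -0.831. EM1 (AT3G51810), a late embryogenesis protein, gave -0.61, -0.85 and -0.52 in cry1cry2, against 1.91, 0.74 and 0.90 in wild type (-1.85 ± 0.50, adjusted p = 0.021). OLEO2, an oil body protein gene, was lower by 2.67 ± 0.84 (adjusted p = 0.0365), a call that held in 8 of 16 alternatives other than the slide term. On DMSO EM1 was higher by 1.98 in the mutant and OLEO2 differed by 0.93. The summed linear signal of the list was 84.1 to 98.6 in cry1cry2, against 98.4 to 122 in wild type. Such a sum is carried by the brightest members, and no sum given here or below was computed with quantile normalization. In whole seedlings, fewer cells of a kind and less RNA per cell cannot be told apart.

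The 15 dark and sugar starvation genes had a median of -0.635 with 2 called lower. These were DIN6 (-1.15 ± 0.24), an asparagine synthetase, and DIN10 (-1.09 ± 0.24), and after quantile normalization they stood at -0.54 and -0.31 and were not called. DIN6 was higher in cry1cry2 by 1.06 on DMSO. Of 15 heat shock genes none was called on 3B7N, with a median of -0.897, against 10 higher and 1 lower on DMSO. Their arrays varied widely, as HSFA2 (AT2G26150), a heat stress factor, gave -0.47, -0.31 and 3.53 in cry1cry2, against 2.85, 3.78 and 2.60 in wild type (-2.17 ± 1.25, adjusted p = 0.215). HSP17.4 differed by -2.73 ± 1.30, and without cry1cry2 array 3 it was called, at -4.05.

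In the circadian clock list of 19 genes, 1 was higher and 4 lower. The morning factors LHY (-1.05 ± 0.24), RVE1 (-1.25 ± 0.31) and RVE8 (-1.1 ± 0.19) and the coactivator LNK2 (-1.09 ± 0.26) were lower, and PRR3 (1.43 ± 0.26), an evening regulator, was higher. RVE8 (AT3G09600) gave -2.05, -2.15 and -1.93 in cry1cry2, against -0.79, -0.96 and -1.08 in wild type (adjusted p = 0.00349). LHY had a larger difference on DMSO (-3.57), and the change of 2.53 was called (adjusted p = 0.000387). For RVE1, RVE8, LNK2 and PRR3 no change between media was called.

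Of 35 detoxification genes, 4 were higher and 1 lower, with a median of 0.245. The glutathione S-transferase genes GSTF6 (1.32 ± 0.29) and GSTU12 (1.95 ± 0.62) and the transporter genes ABCB4 (1.03 ± 0.18) and ABCG40 (1.07 ± 0.36) were higher, and CYP710A1 (-1.11 ± 0.20), a sterol desaturase gene, was lower. GSTF6 gave 2.87, 2.94 and 2.99 in cry1cry2, against 1.48, 1.38 and 1.97 in wild type, and it may share signal with near-identical family members. The call of ABCG40 held in 4 of 16 alternatives other than the slide term, and GSTU12 was not called with quantile normalization (adjusted p = 0.0516). Of 19 nitrate and nitric oxide genes, HB1 (AT2G16060), a haemoglobin that removes nitric oxide, was called higher. It gave 0.30, 0.61 and 0.92 in cry1cry2, against -1.18, -1.94 and -1.91 in wild type, higher by 2.29 ± 0.30 (adjusted p = 0.000799), against 1.74 on DMSO. GLU1, the ferredoxin glutamate synthase, was lower by 1.17 ± 0.22 and stood at -0.91 with quantile normalization.

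Genes of specialised metabolism in roots and at surfaces gave calls in both directions. Of 17 root markers, 3 were higher and 2 lower, and the 3 higher ones form the thalianol pathway, whose genes make a triterpene of roots and lie together in the genome. THAS1 (AT5G48010), the thalianol synthase, gave -3.19, -2.98 and -3.34 in cry1cry2, against -6.05, -5.72 and -5.39 in wild type, higher by 2.55 ± 0.18 (adjusted p = 1.25e-05). THAH was higher by 2.06 ± 0.44 and THAD by 1.44 ± 0.32. The 2 lower ones belong to root hairs, the wall protein gene LRX1 (-1.69 ± 0.27) and the expansin gene EXPA7 (-1.06 ± 0.24). The summed linear signal of the root markers was 20.7 to 27.6 in cry1cry2, against 31.3 to 33.9 in wild type. The thalianol genes thus lay against the sum of the list. On DMSO the sums overlapped, at 21.2 to 26.2 in cry1cry2 and 20.4 to 25.4 in wild type. THAS1 kept its call with the slide term and was 2.23 higher on DMSO.

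Of 28 cutin and suberin genes, 4 were higher and 1 lower. FAR1 (AT5G22500), a fatty acyl reductase, gave 1.32, 2.03 and 1.4 in cry1cry2, against -0.02, -0.18 and -0.34 in wild type, higher by 1.76 ± 0.30 (adjusted p = 0.00296). FAR5 (1.13 ± 0.28), the hydroxylase gene CYP86A4 (1.14 ± 0.21) and the suberin regulator MYB39 (1.28 ± 0.43) were higher and the cutin acyltransferase gene GPAT8 (-1.24 ± 0.27) was lower. The call of MYB39 held in 5 of 16 alternatives other than the slide term. Of 10 glucosinolate genes, 2 were higher and 0 lower, both of the indolic branch: MYB34 (1.68 ± 0.34), its regulator, and CYP79B3 (1.05 ± 0.18), its first enzyme. The list had 19 members on the array. Without the filter on dim probes all 19 were tested, 2 being higher and 2 lower, with a median of 0.0638 in place of 0.572. Of 8 stomatal lineage genes, MUTE (1.27 ± 0.38) and EPF2 (1.29 ± 0.38) were called higher, though MUTE overlapped between genotypes and EPF2 was not called with quantile normalization. Neither was called without cry1cry2 array 1, cry1cry2 array 2 or wild-type array 2, with normexp or on the 6 arrays alone, and MUTE was called in 7 of the 16 alternatives. The summed linear signal of the stomatal list was 3.04 to 4.36 in cry1cry2, against 3.82 to 5.16 in wild type, while its median log2 difference was 0.577. The vascular sum was 13.2 to 20 in cry1cry2, against 19.5 to 24.1 in wild type. On DMSO the stomatal sum was 3.18 to 3.3 in cry1cry2 and 3.17 to 4.93 in wild type, and the vascular sum 17.5 to 25.1 and 12 to 13.7. In the defence, cell division and vascular lists (19, 16 and 7 genes) limma called 0 genes on 3B7N. No tested member of the root, stomatal, vascular or seed lists was below background on all 3 arrays of either genotype on 3B7N. This was partly fixed beforehand, since genes were tested only when well above background on all 3 arrays of either genotype. Of 18 root and 15 seed members on the array, 17 and 14 were tested. The part of tissue makeup in the results was not tested.

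Set against DMSO, the 1436 genes fell into several classes. The same direction was called on both media for 629 genes, 43.8% of those called on 3B7N and 16.7% of those called on DMSO, of which 311 were higher and 318 lower. Their median size was 1.37 in log2 units on 3B7N and 1.89 on DMSO. For 463 of the 629 the change between media was not called, for 162 the difference was called smaller on 3B7N and for 4 larger. The 4 are AT5G46950, AT5G46960, AT3G61930 (3.37 ± 0.35 on 3B7N and 1.68 on DMSO) and AT3G09950 (3.11 ± 0.37 on 3B7N and 1.09 on DMSO), all higher in cry1cry2 and named after their values were seen. The 2 probes of AT3G09950 gave 1.63 and 3.11 on 3B7N, and the brighter one was well above background on 1 of 3 wild-type arrays there. With the slide term the change was not called for AT3G61930 (1.03, adjusted p = 0.334) or AT3G09950 (1.31, adjusted p = 0.261). CIPK20, NDB3, SAG29, THAS1 and CYP96A5 are among the 463, and NDA1, FBA5, PGL5, BIC1 and PORA among the 162. A further 3045 genes were called on DMSO and not on 3B7N, PIF4, CHS, HYH and BIC2 among them. The 2 contrasts share no array, but they share an estimate of the spread, and slide layout differs between them too. Every comparison of a call on either medium with the change between media uses the same arrays for both. The change was therefore not tested independently of the calls by which genes were selected.

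An opposite direction was called for 87 genes, 6.06% of the 1436. Of these 51 were lower on 3B7N and higher on DMSO, and 36 were the reverse. ENODL1 (AT5G53870), an early nodulin-like copper protein gene, gave -1.89, -2.10 and -1.67 in cry1cry2 on 3B7N, against 0.11, 0.40 and 0.07 in wild type (-2.08 ± 0.24, adjusted p = 0.000467). On DMSO it was higher in the mutant by 5.66, a change of -7.74 (adjusted p = 5.2e-07). RAB18, EM1, ST2A, EXPA8, DIN6 and CYP710A1 had the same pattern. In each of these genes the mutant lay below wild type on 3B7N and above it on DMSO. The call on 3B7N held in all 16 alternatives other than the slide term for ENODL1 and RAB18. It held in 15 for CYP710A1, in 13 for EM1 and DIN6 and in 12 for ST2A and EXPA8. With quantile normalization EXPA8 stood at -0.75, short of the size required.

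The other 720 genes were called on 3B7N and not on DMSO, and for 320 of them the change between media was called, 220 higher and 100 lower in cry1cry2 on 3B7N. TIP3;1, EPR1, AtMT4b, GA20OX2, CPD and MYBL2 are among the 100, and MYB111, ELIP1, ACO1, FAR5 and MYB39 among the 220. For the remaining 400 it was not called, so a difference confined to 3B7N is not shown for them. With the slide term the change between media was called above 0 for 1930 genes and below 0 for 910. The changes of AtMT4b, GA20OX2, CPD, MYBL2, MYB111, ELIP1, ACO1, FAR5 and MYB39 were then not called, and those of TIP3;1 and EPR1 were. In that fit, however, the change takes wild type on 3B7N from array 1 alone and cry1cry2 on DMSO from array 3 alone. Wild-type array 1 was the highest on 3B7N for TIP3;1 and EPR1, so the slide term does not free their changes from that array.

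For some genes called on both media the difference was smaller on 3B7N. WSD1, a wax ester synthase gene, was higher by 1.09 ± 0.28 on 3B7N and at least 74.6-fold higher on DMSO. CYP71A22, a cytochrome P450 gene, was at least 5.43-fold lower in cry1cry2 on 3B7N and at least 79.2-fold lower on DMSO, since it was not well above background on any mutant array, and it kept its call with the slide term.

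**Figure D5:**
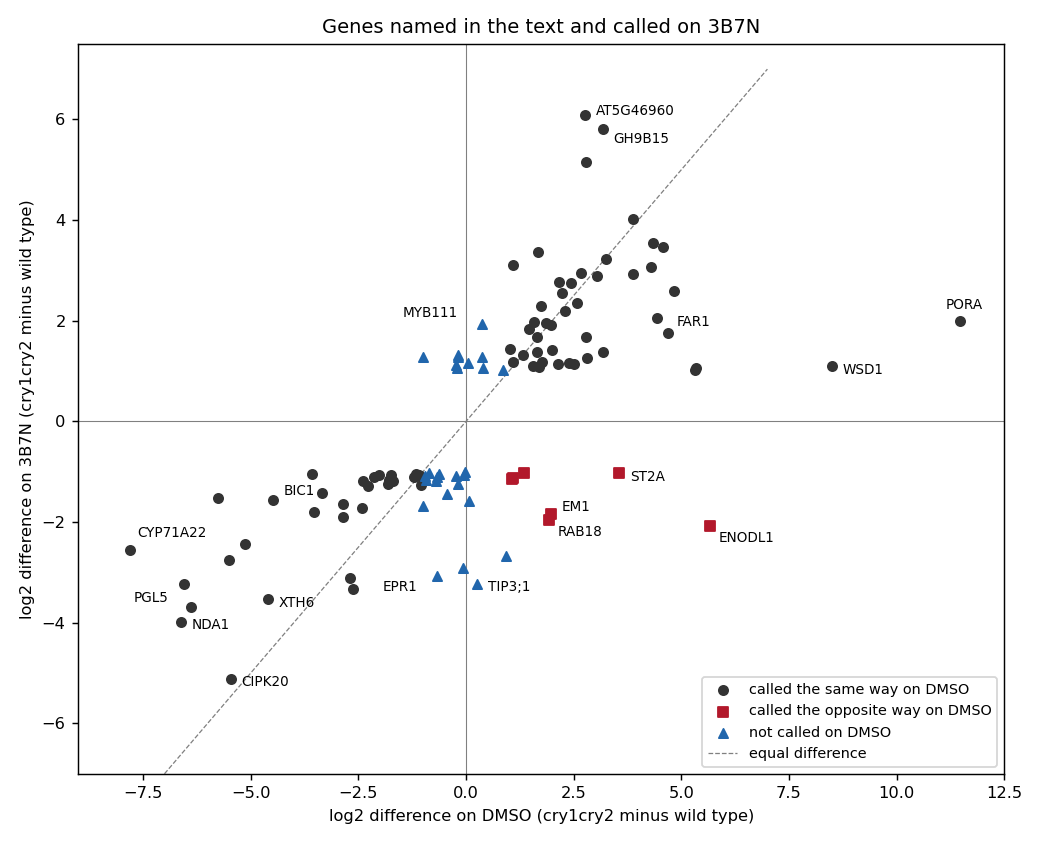
Log2 difference between cry1cry2 and wild type on 3B7N (vertical axis) against that on DMSO (horizontal axis) for the genes named in the text and called on 3B7N, without CRY1, CRY2 and their neighbours. Black circles were called the same way on DMSO, red squares the opposite way and blue triangles were not called there, and the dashed line marks equal differences. CIPK20 lies near the line, PORA and WSD1 far to its right, and ENODL1, RAB18, EM1 and ST2A at the lower right.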

How the data were processed

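RNA of 12 seedling samples was labelled with Cy3 and hybridised to Agilent arrays. Feature Extraction 10.7.3.1 was the authors' image software per the file headers, and their deposited processed signal is a background-subtracted intensity that was not scaled between arrays. Spot and local background median intensities, also in the authors' files, were used for a normexp alternative.

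Of 45220 spots, 43803 were not controls and gave 43603 probes. Spots of a probe were averaged, 49 probes with outlier spots were left out, and log2 signals were set relative to the 75th percentile of each array. Probes reached a locus and symbol through their RefSeq transcript in a gene table of assembly TAIR10.1 (34316 probes, 9238 without). The array header names TAIR10, so no coordinates are given. Genes were tested where a probe passed the background flag on all 3 arrays of either genotype on 3B7N, and the kept probe with the highest mean stood for its gene (20256 genes, 6112 with several kept probes). Differences were tested with limma 3.58.1 in R 4.3.3 (4 group means over 12 arrays, two-sided, Benjamini-Hochberg), checked on simulated data.

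A lower bound (at least N-fold) replaces the fold where no probe was above background in a group. It is the mean of the brighter group against the lowest signal flagged well above background, or the probe's own signal if higher, on each array of the other group. Arrays give no counting depth, and their number limits the precision. The named genes are, among called genes having a symbol and no overlap, the 10 highest and 10 lowest, up to 4 per list by adjusted p, the 6 highest and 6 lowest changes between media, some light-signalling and housekeeping genes, called neighbours of CRY1 and CRY2, and every member of counts up to 5. Not all genes this rule covers are described. The comparison, the lists and the rule were chosen with earlier results of these data known. Replicate numbers did not pair samples: the correlation of deviations of same-numbered arrays on 3B7N was -0.136, -0.268 and -0.338.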

Additional observations from a re-analysis of the deposited data

Results flagged for a closer look

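The genotype difference (cry1cry2 minus wild type) was set on 3B7N against DMSO by the interaction in the limma fit, and 55 of the genes named above differed between the media at an adjusted p under 0.05 and a change of at least 1. The values are the log2 difference on 3B7N minus that on DMSO.

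Among genes called in the same direction on both media, the difference was smaller on 3B7N in genes higher in the mutant, namely PORA (-9.48), WSD1 (-7.41), IAA20 (-4.29), ABCG40 (-4.27), FAR1 (-2.93), THAH (-2.38), MYB75 (-2.24) and RD29A (-1.54). It was likewise smaller in genes lower in the mutant, namely OHP2 (1.05), XTH6 (1.06), CHIL (1.21), AT1G04350 (1.31), RUP2 (1.94), LHY (2.53), NDA1 (2.65), FBA5 (2.69), D27 (2.70), FRO7 (2.75), BIC1 (2.92), PGL5 (3.33), BBX32 (4.23) and CYP71A22 (5.25). It was larger on 3B7N in AT3G61930 (1.69), AT3G09950 (2.02), AT5G46950 (2.38) and AT5G46960 (3.33). Among genes called in opposite directions, lower in cry1cry2 on 3B7N and higher on DMSO, the change was that of ENODL1 (-7.74), ST2A (-4.59), RAB18 (-3.88), EM1 (-3.82), EXPA8 (-2.36), DIN6 (-2.21) and CYP710A1 (-2.2). Genes called on 3B7N and not on DMSO were OLEO2 (-3.60), TIP3;1 (-3.5), AtMT4b (-2.84), EPR1 (-2.40), GA20OX2 (-1.64), CPD (-1.01), MYBL2 (-1.01), ACO1 (1.12), FAR5 (1.36), ELIP1 (1.49), MYB111 (1.56) and MYB39 (2.27). Genes called on DMSO and not on 3B7N were HSFA2 (-8.05), HSP17.4 (-7.72), AOX2 (-4.27), PIF4 (-3.0), PIF5 (-1.80), PIF3 (-1.0), CRY3 (1.76), HYH (2.22), CHS (3.3) and BIC2 (4.07).

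In wild type on DMSO, WSD1, ABCG40, MYB75 and HSP17.4 were not well above background on any array, nor was the brightest PORA probe. The same held for CYP71A22 in the mutant on both media and for AT5G46950 in wild type on 3B7N, so the sizes of these changes are no bounds. The arrays of HSFA2 and HSP17.4 varied within the mutant, with an SD of 2.26 and 2.3 on 3B7N and 2.81 for both on DMSO. No slide held both genotypes on the same medium. A fixed slide term takes each change from cry1cry2 DMSO array 3 and wild-type 3B7N array 1, the other arrays of those groups dropping out. With a fixed slide term all 55 changes kept their sign and 39 were called. The other 16 were those of HSFA2, HSP17.4, OLEO2, AtMT4b, THAH, MYB75, GA20OX2, CPD, MYBL2, ACO1, FAR5, ELIP1, MYB111, AT3G61930, AT3G09950 and MYB39.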

How the results depend on the processing

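On 3B7N, normexp with quantile normalization called 282 genes higher and 303 lower, and a fixed slide term called 12 and 24. Without a filter on dim probes 1921 genes were called lower. Normexp also called 1404 genes lower on DMSO and 1550 above 0 for the change between media. Of the list entries, 36 were called higher and 48 lower. The slide term left 1 and 2 (on DMSO it called 1443 genes higher and 2277 lower, and for the change 1930 above and 910 below 0), median scaling called 75 lower and normexp 23. The slide term raised the standard errors, and in the other 3 cases the cause was not tested. Leaving out 1 array gave 566 to 1038 genes higher and 520 to 675 lower on 3B7N (fewest without wild-type array 2), and 24 to 36 list entries higher and 32 to 56 lower. On DMSO it gave 1413 to 1648 higher and 2171 to 2329 lower, and for the change 2282 to 2682 above and 988 to 1226 below 0 (leaving out DMSO arrays was added after seeing the data). A fit with the replicate block called 812 genes higher and 598 lower, and the numbers did not pair the samples. Slide as a random block called 1258 genes (consensus correlation 0.0735). Of the 825 genes called higher and 611 lower, 168 and 225 kept their call in all 16 alternatives other than the fixed slide term, and 10 and 22 also with it. Of the 115 named genes called, 60 kept their call in those 16, 38 lost it with normexp, 22 with quantile normalization and 46 without at least 1 array. SRO3, scpl44, LRX1, RVE8, THAD, ACO1 and CYP71A22 lost it with normexp and in no other of those 16. ACS5 reversed with the slide term (-0.016), and HSP17.4 was called without cry1cry2 array 3. No slide holds both genotypes on the same medium, so values within a slide could not be computed. Signal over background limits the folds of dim genes.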

Other observations

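Genes of the sulfur deficiency response are a group chosen after the values were seen. Of 17 tested, 7 were called higher and 0 lower on 3B7N (4.07% and 3.02% over all genes), with a median of 0.98. On DMSO 7 were called higher and 1 lower (7.55% and 11% over all genes), with a median of 0.63. ATSDI1 (AT5G48850), a gene induced when sulfur is short, gave -3.45, -3.40 and -3.12 in cry1cry2, against -5.67, -6.00 and -5.36 in wild type, with no overlap. It was higher by 2.35 ± 0.18 (log2, SE, adjusted p = 2.25e-05), against 2.57 on DMSO, and kept its call with the slide term. LSU1 (AT3G49580), a marker of low sulfur, gave -1.86, -1.54 and -0.80 in cry1cry2, against -3.5, -3.77 and -3.54 in wild type, higher by 2.2 ± 0.32 (adjusted p = 0.00134). LSU2 was higher by 1.92 ± 0.44, LSU3 by 1.79, the myrosinase-like gene BGLU28 by 2.0, the vacuolar sulfate exporter gene SULTR4;2 by 1.31 and the sulfate reduction gene APR1 by 1.26. BGLU28 was 6.76 higher on DMSO, where its wild-type mean was -9.13, and the change of -4.76 was called. The root uptake transporter genes SULTR1;1 (1.06, adjusted p = 0.0917) and SULTR1;2 (0.14) and the serine hydroxymethyltransferase gene SHM7 (0.58) were not called. Nor were APR2 (0.51, but -1.86 and called lower on DMSO), APR3 (0.98), LSU4 (0.35), SULTR2;1 (-0.07), SULTR4;1 (0.57), AT1G04770 (0.97) and AT5G26220 (0.73).

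Genes of alternative respiration were also chosen after the values were seen and are read against the same shares. Of 10 tested, NDB3 and AOX1C (1.01, adjusted p = 0.00974) were called higher and NDA1 lower on 3B7N. The other dehydrogenases NDA2 (0.08), NDB1 (-0.13), NDB2 (0.20) and NDC1 (0.01) and the alternative oxidases AOX1A (-0.10) and AOX1D (0.08) were not called. AOX2 (AT5G64210) gave -4.20, -3.60 and -3.32 in cry1cry2, against -2.74, -3.03 and -3.06 in wild type (-0.76 ± 0.26, adjusted p = 0.0523), and on DMSO it was higher in the mutant by 3.5, with 1 of 3 wild-type arrays well above background.

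Further genes that kept their call with the slide term were named after their values were seen. FRO7 (AT5G49740), the iron reductase of chloroplasts, gave -2.99, -3.41 and -3.38 in cry1cry2, against -0.74, -0.15 and -0.62 in wild type, lower by 2.76 ± 0.20 (adjusted p = 1.86e-05). D27 (AT1G03055), an isomerase gene of strigolactone synthesis, was lower by 2.43 ± 0.18. UNE10 (AT4G00050), also known as PIF8 of the PIF family of bHLH factors, gave -1.93, -1.65 and -1.86 in cry1cry2, against 0.13, 0.04 and 0.11 in wild type. It was lower by 1.91 ± 0.13 (adjusted p = 1.25e-05). LAC12, a laccase gene, was higher by 1.85 ± 0.23. The groups of all 4 were apart on every array, and all 4 were called in the same direction on DMSO.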
